A study of Mus musculus with 12 samples.

Results

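ATAC-seq, in which a transposase marks open chromatin, had been run on CD4+ T cells of mice, and the regions described here were open in Th2 cells, open in naive cells and not called open in Th1 cells. Peaks of all 12 libraries on chromosomes 1 to 19 and X were merged wherever they overlapped by at least 1 bp, which gave 110642 regions. A region was a member if it had a peak in all 4 Th2 libraries, in none of the 4 Th1 libraries and in at least 1 of the 2 wild-type naive libraries. This held for 394 regions, which are 0.356% of all merged regions and 0.679% of the 58023 regions with a wild-type naive peak. Members were thus chosen by their peak calls in these 10 libraries, so presence in them is a description and not a finding.

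The libraries came from Th2, Th1 and naive cells of C57BL/6J-Ets1-SE-KO mice, which lack a super-enhancer of the Ets1 gene, and from the same cell types of wild-type C57BL/6J mice, with 2 libraries in each of the 6 groups. Naive cells were isolated from spleen by negative selection, and the 2 naive libraries of a genotype were technical replicates of 1 biological sample. For Th2 cells, naive cells were cultured for 6 days with IL-4 at 50 ng/mL, an antibody that blocks IFN-gamma, and antibodies to CD3 and CD28. For Th1 cells, the culture held IL-12 at 10 ng/mL and IL-2 at 1 ng/mL with antibodies to CD3 and CD28, also for 6 days. Both knockout libraries used here as Th2 are titled Th1 although their source name gives Th2 cells, and they shared 77.7 to 81.7% of their regions with the wild-type Th2 libraries, against 53.2 to 67.4% with the wild-type Th1 libraries. Regions at fixed Th2 genes had peaks 58 and 52 times in these Th2 KO libraries and 59 and 57 times in Th2 WT libraries, against 32 to 42 times in the 4 Th1 libraries and 30 to 38 times in the 4 naive libraries. The lists held 34746 to 56357 peaks and the number of reads behind them is unknown, so that where no peak is listed, openness below the calling threshold remains possible. Naive and polarized libraries carry different run codes in their peak names, so that cell state and run cannot be told apart between them, while both genotypes share the code within each.

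Naive CD4+ T cells circulate until they meet antigen and then take up one of several helper fates, which differ in the cytokines they make. Th1 cells make interferon gamma under the control of T-bet, and Th2 cells make IL-4, IL-5 and IL-13 under the control of Gata3 and of Stat6, which acts downstream of IL-4. Regulatory regions used by such a fate may open anew during polarization or may already be open in the naive cell, and a region that is open in naive cells can be kept in one fate and closed in the other. Ets1 is an ETS family factor that is highly expressed in resting T cells.

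Few members lay at gene starts, and the promoters of 5 genes are shown because the regions over them overlapped at least 150 of the 250 bases before a start listed by RefSeq (GRCm38.p6), taken from the highest Th2 peak ranks down. They are written 5′ to 3′ on the strand of the gene. Capitals mark AGATAA and the variant TGATAA (bound by GATA factors), GGAAGT (ETS factors), TGTGGT (RUNX factors) and GGGCGG (the GC box of SP and KLF factors), searched on both strands, and no motifs overlapped. A match is a description of the letters and not a binding site. The Stra6 window lies at chr9:58133825-58134074 on the plus strand, Steap3 at chr1:120258879-120259128 on the minus strand and Angptl2 at chr2:33215711-33215960 on the plus strand. Syne1 lies at chr10:5550693-5550942 on the minus strand and Ildr1 at chr16:36693728-36693977 on the plus strand.
Stra6: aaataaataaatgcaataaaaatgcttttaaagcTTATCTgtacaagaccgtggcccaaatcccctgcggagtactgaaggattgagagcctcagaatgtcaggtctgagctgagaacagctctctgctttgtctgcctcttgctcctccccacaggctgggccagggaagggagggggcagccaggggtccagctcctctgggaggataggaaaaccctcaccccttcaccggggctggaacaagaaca
Steap3: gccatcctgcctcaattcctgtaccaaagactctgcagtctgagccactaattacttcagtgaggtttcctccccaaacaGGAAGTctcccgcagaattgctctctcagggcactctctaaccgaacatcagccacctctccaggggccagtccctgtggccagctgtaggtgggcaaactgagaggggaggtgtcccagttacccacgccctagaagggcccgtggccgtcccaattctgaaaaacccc
Angptl2: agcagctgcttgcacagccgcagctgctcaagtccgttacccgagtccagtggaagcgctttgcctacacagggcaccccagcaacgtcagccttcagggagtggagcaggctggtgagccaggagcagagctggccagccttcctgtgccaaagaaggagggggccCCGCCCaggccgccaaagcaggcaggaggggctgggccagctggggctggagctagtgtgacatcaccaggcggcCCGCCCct
Syne1: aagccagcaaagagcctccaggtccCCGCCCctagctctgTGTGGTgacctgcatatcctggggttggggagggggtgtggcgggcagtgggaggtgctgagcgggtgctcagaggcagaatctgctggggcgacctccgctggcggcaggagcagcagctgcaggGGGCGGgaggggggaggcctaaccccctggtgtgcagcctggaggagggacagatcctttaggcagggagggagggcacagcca
Ildr1: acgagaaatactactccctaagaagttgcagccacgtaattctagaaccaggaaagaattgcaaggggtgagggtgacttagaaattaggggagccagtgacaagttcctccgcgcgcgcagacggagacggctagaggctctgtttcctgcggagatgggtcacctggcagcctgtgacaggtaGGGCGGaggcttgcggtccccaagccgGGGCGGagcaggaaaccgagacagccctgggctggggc

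Of these 5 promoters, Stra6, the gene of the membrane receptor for retinol uptake, held 1 GATA motif, which lay in the part of the window that the member did not cover. Steap3, which encodes a ferrireductase of the endosome, held 1 ETS motif. GC boxes stood 2 times each in Angptl2, the gene of a secreted angiopoietin-like protein, in Syne1, which encodes the nuclear envelope protein nesprin-1, and in Ildr1, the gene of a tricellular junction protein, and Syne1 also held 1 RUNX motif. In all, 9 promoters were covered by a member over at least 150 bases. The GATA motif was in 1 of these 9 windows against 14.5% of all 21045 listed promoters, ETS in 3 against 20.5%, RUNX in 2 against 12.2%, the GC box in 3 against 43.1% and the E-box CAGGTG in 2 against 17.0%. Motifs of TCF/LEF, STAT6, other STAT, AP-1, T-box and forkhead factors were also searched and were in 0 of the 9. Among all listed promoters their shares ran from 2.64% (forkhead) to 12.8% (TCF/LEF). Counting motifs inside the member alone, GATA was in 0 of the 9 and ETS in 2, with the other counts unchanged. With 9 promoters these counts describe the genes at hand and say nothing about the set.

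At the Stra6 promoter, the authors' fold enrichment over the local background was 4.06 and 6.15 in Th2 KO libraries, 4.28 and 3.36 in Th2 WT libraries, 4.45 and 4.29 in naive KO libraries, and 7.39 and 9.10 in naive WT libraries. The Steap3 promoter had 3.80 and 3.67 in Th2 KO libraries and 3.98 and 3.99 in Th2 WT libraries, with 3.73 in 1 naive KO library, no peak in the other, and 4.55 and 3.71 in naive WT libraries. Ildr1 had 3.35 and 3.39 in Th2 KO libraries, 3.51 and 3.39 in Th2 WT libraries, 7.25 and 6.58 in naive KO libraries and 10.9 and 11.5 in naive WT libraries. The Angptl2 promoter had 3.91 and 3.88 in Th2 KO libraries and 4.28 and 3.39 in Th2 WT libraries, with 6.22 in 1 naive KO library, no peak in the other, and 5.07 and 5.06 in naive WT libraries. At Syne1 the folds were 2.91 and 2.70 in Th2 KO libraries, 2.63 and 3.35 in Th2 WT libraries, 3.58 and 4.85 in naive KO libraries and 4.17 and 4.07 in naive WT libraries. Stra6, Syne1 and Ildr1 were thus called in all 4 naive libraries, and Steap3 and Angptl2 in 3. Fold enrichment is scaled within each library by the peak caller, so these values show that a peak was called and its height over the local background. They do not give its rank in the list, which goes by the −log10 q-value, and they are not compared between lists.

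Most regions that were open in naive cells were called in none or in all of the polarized libraries. Of the 58023 regions with a wild-type naive peak, 22446 (38.7%) had no peak in any of the 8 polarized libraries and 16314 (28.1%) had a peak in all 8. The 394 members stood beside 149 regions with the mirror pattern, a peak in all 4 Th1 libraries and in no Th2 library. That order reversed when every list was shortened to its 34746 highest-scoring peaks, the length of the shortest list, which belongs to a Th1 library: 80 regions then followed the Th2 rule and 208 the Th1 rule. The order of these 2 counts thus depended on the length of the lists.

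**Figure D1:**
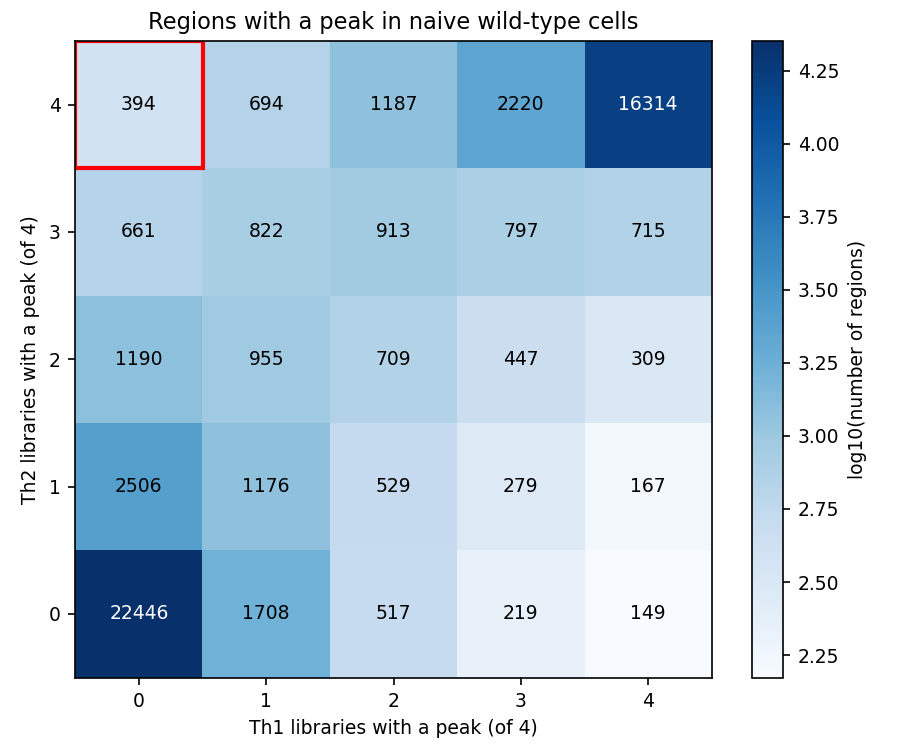
Number of regions with a wild-type naive peak for each combination of Th2 libraries (0 to 4) and Th1 libraries (0 to 4) with a peak, where the color gives the count on a log scale. The 394 members are the cell with 4 Th2 and no Th1 libraries, the mirror cell holds 149, and the counts are greatest where no polarized library (22446) or all 8 (16314) had a peak.

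Members were the smaller portion of the Th2-only regions. In all, 2696 regions had a peak in all 4 Th2 libraries and in no Th1 library, and 394 of these (14.6%) had a wild-type naive peak, while 2302 had none. Of the members, 307 had a peak in both wild-type naive libraries and 87 in 1 of them. The member count moved to 618 without Th2_KO replicate 2, to 656 without Th1_WT replicate 1, and to 985 without both Th2_KO libraries. Each of these changes takes conditions out of the rule.

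Membership also turned on the call threshold in single libraries. Next to the members were 694 regions with a wild-type naive peak, all 4 Th2 peaks and a peak in exactly 1 Th1 library, which was Th1_KO replicate 1 at 195, Th1_KO replicate 2 at 160, Th1_WT replicate 1 at 261 and Th1_WT replicate 2 at 78. A further 661 had no Th1 peak and 3 of the 4 Th2 peaks, with Th2_KO replicate 2 missing most often, at 220. Of the 394 members, 40 (10.2%) overlapped a region that met the rule in lists of equal length, 195 (49.5%) with peaks at a −log10 q-value of at least 2, and 127 (32.2%) when peaks had to cover at least 50% of a region. All 3 of these other readings held for 24 members. Of the promoter regions shown above, none was found again in lists of equal length, and the Syne1 region was found again under none of the 3 readings. In the same order, 80, 354 and 373 regions met the rule under them, so that regions entered the set as well as left it.

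Peaks in the members ranked below the middle of their lists. A percentile here places the best peak of a region among all peaks of that list by score, with 100 as the highest. The median percentile of the members was 36.7 and 35.2 in Th2 KO lists and 35.9 and 34.2 in Th2 WT lists, against 58.3, 57.4, 57.1 and 56.9 in the same lists for all regions with a wild-type naive peak that had a peak there. In naive KO lists it was 39.8 and 40.6 for members and 56.0 and 56.2 for all such regions, and in naive WT lists 44.2 and 46.7 for members and 50.9 in both for all. Regions with peaks in all 8 polarized libraries had medians of 72.7 to 74.6 in Th2 lists, and Th2-only regions without a naive peak 43.2 to 47.3. Just outside the rule, regions with 3 of 4 Th2 peaks had Th2 medians of 20.3 to 23.7, and those with 1 Th1 peak 32.8 to 38.0. Median fold enrichment in members was 3.72 in both Th2 KO lists, 3.60 and 3.77 in Th2 WT lists, 4.44 and 4.52 in naive KO lists and 4.69 and 4.95 in naive WT lists.

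**Figure D2:**
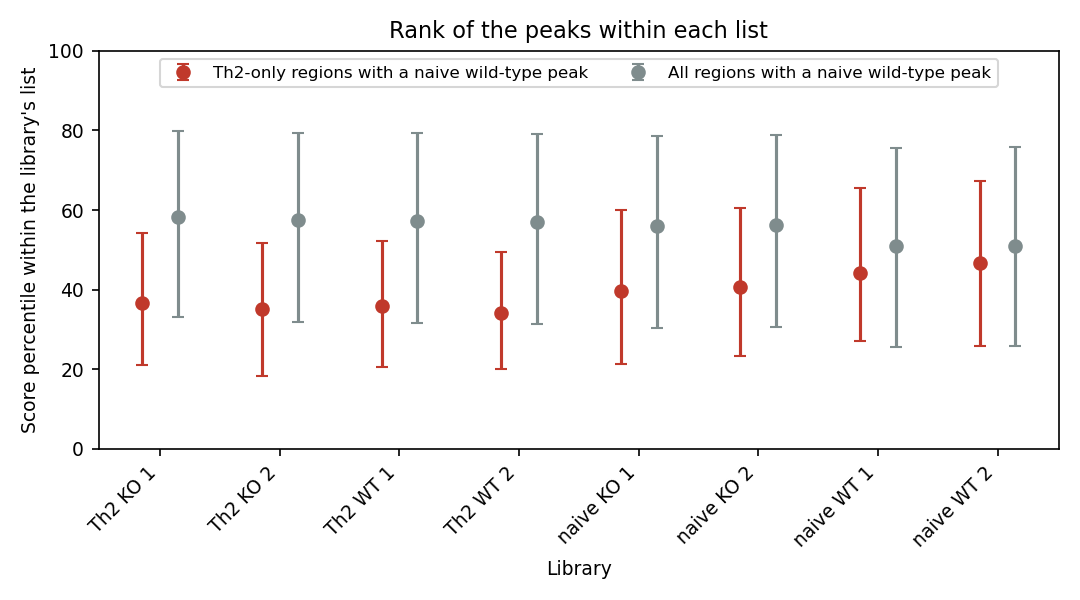
Percentile of the best peak within each library list (0 to 100), for members and for all regions with a wild-type naive peak, where points are medians and bars run from the lower to the upper quartile. Members have Th2 medians of 34.2 to 36.7, below the 56.9 to 58.3 of all regions with a wild-type naive peak in the same lists.

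The spread among members was wide. Averaged over the 4 Th2 lists, the percentile of single members ran from 7.76 to 91.2 with a median of 34.8, and 70 members lay above 50. The highest was inside Sp4, which encodes a zinc finger factor of the SP family, at chr12:118276139-118276812. Its fold enrichment was 6.45 and 5.76 in Th2 KO libraries, 7.30 and 5.69 in Th2 WT libraries, 3.57 and 4.60 in naive KO libraries and 4.06 and 6.31 in naive WT libraries. By score, the Sp4 region stood at the 91.4 and 88.9 percentiles in Th2 KO lists and at 97.3 and 87.1 in Th2 WT lists. In naive KO lists it stood at 6.32 and 32.6, and in naive WT lists at 29.3 and 54.9.

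The second lay inside Taf3, the gene of a TFIID subunit that reads a histone mark of active promoters, at chr2:9997519-9998080. It had folds of 5.59 and 6.71 in Th2 KO libraries, 6.62 and 6.04 in Th2 WT libraries, 9.69 and 11.8 in naive KO libraries and 14.1 and 14.3 in naive WT libraries. It ranked high everywhere it was called, at the 78.5 to 89.6 percentiles in Th2 lists and at 93.4 to 98.7 in naive lists. A region inside Arl6ip5, the gene of a membrane protein of the endoplasmic reticulum, had folds of 5.74 and 4.18 in Th2 KO libraries, 3.57 and 5.02 in Th2 WT libraries, 4.35 and 4.16 in naive KO libraries and 5.11 and 5.86 in naive WT libraries.

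Further members among the 10 highest lay inside Sgms1 (a sphingomyelin synthase), Lpin2 (a phosphatidate phosphatase), Zfhx3 (a homeobox and zinc finger factor) and Diaph3 (a formin), 35.2 kb from Pxylp1 (a xylose phosphatase of proteoglycan synthesis) and 90.2 kb from Chm (the Rab escort protein). The member in Lpin2 was 446 bp from a listed start. At Sgms1 the folds were 4.36 and 3.70 in Th2 KO libraries, 4.45 and 3.03 in Th2 WT libraries, 3.51 and 3.10 in naive KO libraries and 2.91 and 3.07 in naive WT libraries. By contrast the regions nearest Chm and Diaph3 had a peak in 1 naive WT library each and in no naive KO library, and their naive percentiles were 1.84 and 2.15.

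The naive knockout libraries were not used by the rule. The share of members with a peak in at least 1 of them was near that of all naive-open regions, and the share with a peak in both was lower. A peak was called at 204 members (51.8%) in naive_KO replicate 1 and at 234 (59.4%) in replicate 2, against 60.1% and 63.7% of all regions with a wild-type naive peak. At least 1 naive KO library had a peak at 262 members (66.5%, where the background over all regions with a wild-type naive peak was 69.0%), both had one at 176 (44.7%, background 54.8%), and 132 had none. Th1-only regions with a naive peak were at 79.9% for at least 1 library and 62.4% for both. Among the 307 members with a peak in both wild-type naive libraries, 66 (21.5%) had none in either naive KO library, near the background of 20.9%. With technical replicates of 1 biological sample per genotype no test over animals was possible.

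These shares followed the rank of the naive peak. Members were set beside all naive-open regions of the same quartile of naive wild-type rank, and in ascending order at least 1 naive KO library had a peak at 32.3%, 58.7%, 85.6% and 100% of members (99, 121, 104 and 70 members) against 32.7%, 56.7%, 87.6% and 99.1% of all. Both naive KO libraries had a peak at 9.09%, 27.3%, 63.5% and 97.1% of members, against 15.1%, 33.1%, 73.6% and 97.4% of all. Within quartiles the share seen in at least 1 library thus lay close to the background, above it in 2 quartiles and below it in 2. The share seen in both lay below the background in the lower quartiles and near it in the highest (97.1% against 97.4%). With lists of equal length, both naive KO libraries had a peak at 53.8% of the 80 members and at 66.8% of all naive-open regions, and at least 1 had a peak at 72.5% of those members and at 80.5% of all. Of the 2302 Th2-only regions without a wild-type naive peak, 1.22% had a peak in at least 1 naive KO library.

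**Figure D3:**
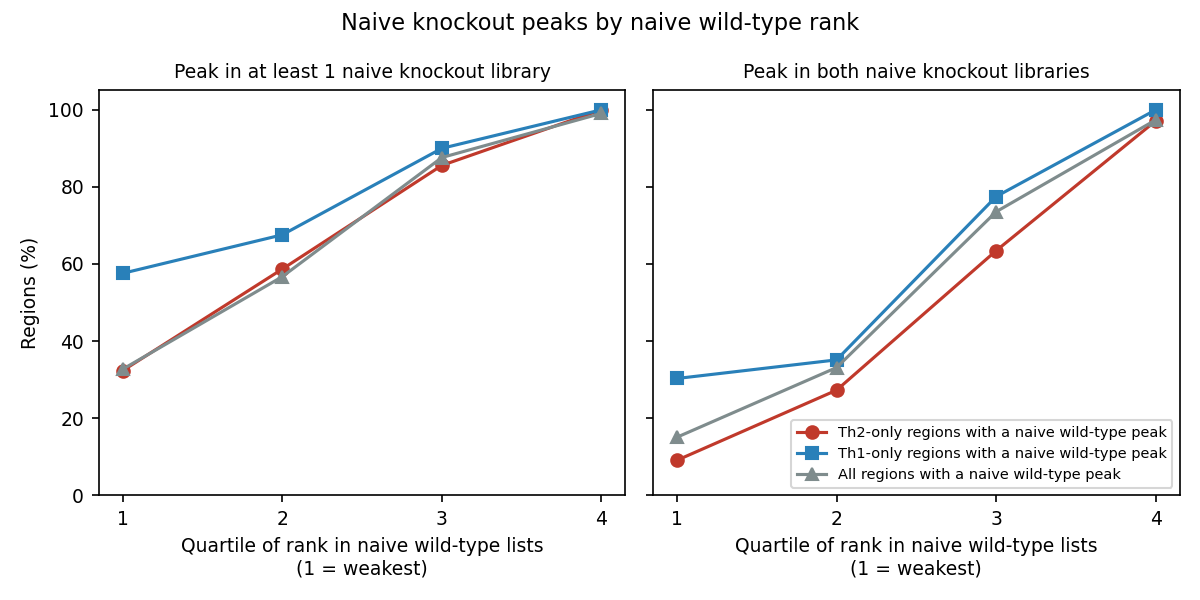
Percent of regions with a peak in both naive KO libraries, and in at least 1, by quartile of the naive wild-type rank, for members, Th1-only regions with a naive peak and all regions with a naive wild-type peak. Members reach 9.09% in the lowest quartile and 97.1% in the highest for both libraries, where all naive-open regions reach 15.1% and 97.4%.

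Other features of the libraries differed between the naive genotypes, and the lists themselves held 41075 and 43823 peaks in naive KO libraries and 52571 and 56195 in naive WT libraries. Regions at 4 Y-linked genes had peaks at 0 of 4 genes in both naive KO libraries and at 4 of 4 in every other library. Regions at 11 B cell genes had peaks 53 and 62 times in naive KO libraries and 39 and 35 times in naive WT libraries. Myeloid genes counted 29 and 32 in naive KO libraries against 34 and 38 in naive WT libraries, and CD8 and NK genes 27 and 27 against 35 and 34. Naive T cell markers counted 56 and 61 in naive KO libraries against 84 and 95 in naive WT libraries, and general T cell markers 30 and 28 against 37 and 40. The part of these differences in the members' naive KO shares was not tested.

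To read the pattern in libraries that had not chosen it, regions were chosen in 1 genotype and read in the other. With both Th2 WT libraries, neither Th1 WT library and at least 1 naive WT library required, 1980 regions were chosen (3.41% of those with a naive wild-type peak). Of these, 70.9% and 63.4% had a peak in the Th2 KO libraries and 34.9% and 33.8% in the Th1 KO libraries, that is 67.1% ± 5.32 against 34.3% ± 0.786 (SD, n = 2 each). The difference of 32.8 percentage points had no overlap between the 2 cell types, and a two-sided exact permutation test over these 4 libraries gave p = 0.333, the smallest p that 2 against 2 allows. Over all regions with a wild-type naive peak the same difference was 4.17 points, with 46.9% and 45.0% in Th2 KO libraries and 41.7% and 41.9% in Th1 KO libraries. Regions chosen the same way but without a naive peak (6367) were at 82.3% and 76.1% in Th2 KO libraries and at 32.1% and 24.9% in Th1 KO libraries, a difference of 50.8 points.

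The reverse choice used Th2 KO and Th1 KO libraries with the naive WT libraries and gave 1724 regions (2.97%). They had a peak at 69.1% and 65.5% in Th2 WT libraries and at 39.0% and 20.7% in Th1 WT libraries, that is 67.3% ± 2.50 against 29.8% ± 12.9 (SD, n = 2 each), with a difference of 37.5 points and an exact permutation p of 0.333. All regions with a naive wild-type peak differed by 5.54 points in those libraries. In both directions the naive-open regions were thus read back less sharply than the regions that opened anew, by 32.8 against 50.8 points and by 37.5 against 58.8 points. The complete rule was met by 19.9% of the wild-type-chosen regions with a naive peak and by 22.9% of the knockout-chosen ones, against 36.2% and 44.1% of those without a naive peak.

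**Figure D4:**
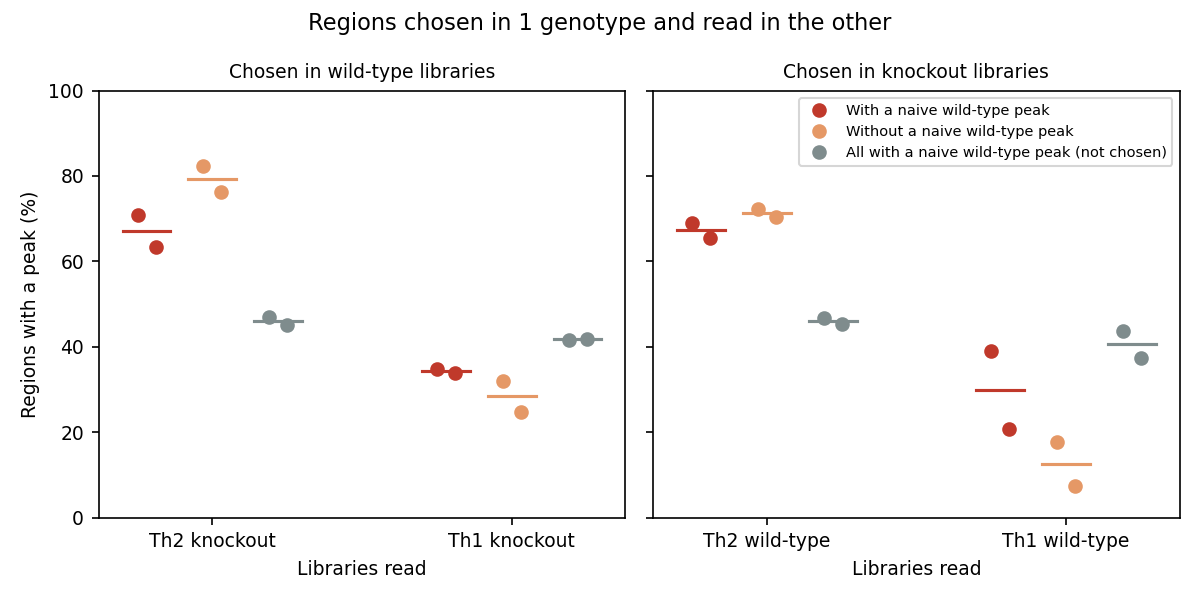
Percent of regions chosen in 1 genotype that had a peak in each Th2 and Th1 library of the other genotype, for regions with a wild-type naive peak, regions without one and all naive-open regions. Each point is 1 library, lines are means of 2, and the wild-type-chosen naive-open regions sit at 70.9% and 63.4% in Th2 KO libraries and at 34.9% and 33.8% in Th1 KO libraries.

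Most members lay away from gene starts. Of the members, 223 (56.6%) overlapped the body of a protein-coding gene, against 55.6% of Th2-only regions without a naive peak, 56.4% of Th1-only regions with one, and 63.6% of all naive-open regions. Listed starts cover 79.9% of protein-coding genes and none on chromosome 18, so shares at starts are undercounts in every set. Within 1 kb of such a start were 15 of 382 members outside chromosome 18 (3.93%), against 2.07% of Th2-only regions without a naive peak, 5.56% of Th1-only regions with one and 17.4% of all naive-open regions. Beside Stra6, Steap3, Angptl2 and Syne1, the 10 of these genes with the highest Th2 ranks were Lpin2, Cd3e, Bcat2 and Got1 (aminotransferases), 4930402F06Rik and Camsap2 (a microtubule minus-end binding protein), with members 0 to 989 bp from the listed start. Ildr1 stood next after them. The member share was 10.0% when peaks had to cover at least 50% of a region, for which no background was computed. Within 2.5 kb it was 7.33%, against 20.8% of all naive-open regions. The median distance to a listed start was 31.9 kb for members, against 42.7 kb, 29.2 kb and 22.8 kb in these other sets in the same order, and the median width of members was 561 bp, against 497, 602 and 508 bp.

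Members were scattered over the genome. They made up 0.491% (chromosome 10) to 0.952% (chromosome 12) of the naive-open regions of a chromosome, and 18 members lay within 50 kb of another member. More of them had a newly opened Th2-only region nearby: 97 members (24.6%) had a Th2-only region without a naive peak within 50 kb, against 15.4% of Th1-only regions with a naive peak and 16.0% of all naive-open regions. Within 100 kb these shares were 37.6%, 28.9% and 27.8%. A Th1-only region without a naive peak lay within 50 kb of 2.79% of members, 5.37% of Th1-only regions with a naive peak and 2.46% of all naive-open regions. These distances were chosen after the values had been seen, and regions that lie close together are not independent.

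Within 20 kb of a member lay 447 protein-coding genes, and 86 members (21.8%) had none. No gene had more than 2, and the 7 genes with 2 were Chd7 (a chromatin remodeller), Itpr1 (the inositol trisphosphate receptor that releases calcium from the endoplasmic reticulum), Ldlrad3, Pde4d (a phosphodiesterase that degrades cAMP), Rad51b (homologous recombination), Sgms1 and Stra6. All 14 of these members lay inside the gene. The second Stra6 region, at chr9:58139835-58140351, had folds of 3.81 and 4.73 in Th2 KO libraries, 3.34 and 3.41 in Th2 WT libraries, 8.68 and 9.02 in naive KO libraries and 12.8 and 14.8 in naive WT libraries. Both Stra6 regions were called in all 4 naive libraries. At Chd7, 1 region had folds of 3.93 and 4.38 in Th2 KO libraries, 3.62 and 3.98 in Th2 WT libraries, 7.72 and 7.34 in naive KO libraries and 10.6 and 9.80 in naive WT libraries, while the other had a naive peak in 1 WT library alone, at 2.53. Neither Pde4d region had a naive KO peak, with folds of 4.73 and 3.98 at one and 3.47 and 3.93 at the other in naive WT libraries. At Itpr1, 1 region had a peak in both naive KO libraries, at 5.21 and 5.60 against 6.82 and 9.97 in naive WT libraries, and the other had none in naive KO libraries against 4.77 and 3.76 in naive WT libraries. Ranks of these genes by member count rest on a difference of 1 region.

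Within 20 kb of genes that define the Th1 and Th2 fates there was no member, but at the background of 0.679% the naive-open regions there were too few for a count of 0 to be told apart from the share over all regions. Within 20 kb of 24 Th2 genes lay 100 naive-open regions, of which 0 were members, and 8 Th2-only regions without a naive peak lay there. Gata3, the Th2 master regulator, had 0 members among 7 naive-open regions within 20 kb, and there were 0 of 2 at Il4, 0 of 4 at Il5 and 0 of 1 at Il13, which encode the signature cytokines. The nearest protein-coding gene of 1 member, at chr2:9649806-9650445, was Gata3 at a distance of 207 kb, and this member is named after its values had been seen. Its folds were 4.66 and 4.04 in Th2 KO libraries and 3.04 and 3.83 in Th2 WT libraries, with no peak in naive KO libraries and 5.04 and 4.13 in naive WT libraries. It stood at the 2.71 percentile in Th2_WT replicate 1 and was not found again under any of the 3 other readings of the rule. It was not the member closest to Gata3 (chr2:9857078-9887953). The member inside Taf3, at chr2:9997519-9998080, lay closer and was found again under all 3 of these readings. At Il5 there were 2 Th2-only regions without a naive peak. Read at the wild-type choice alone, 1.00% of the naive-open regions at Th2 genes were Th2-specific, and 3.00% at the knockout choice, where the background was 3.41% and 2.97%. The Th1 list likewise had 0 members among 143 naive-open regions, among them 6 at Ifng and 5 at Tbx21, the gene of T-bet.

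Genes of the naive state, which are high in resting T cells, had 1 member among 376 naive-open regions (0.266%). Ccr7, which directs homing to lymph nodes, had 0 of 16, and the transcription factor genes Tcf7, Lef1 and Bach2 had 0 of 14, 0 of 36 and 0 of 51. Lef1 held 2 and Bach2 1 Th2-only regions without a naive peak. T cell receptor signalling genes had 4 members of 279 (1.43%), identity factor genes 2 of 247 (0.810%), cytokine receptor, STAT and SOCS genes 2 of 179 (1.12%), follicular helper genes 1 of 74 (1.35%) and myeloid genes 1 of 41 (2.44%). Regulatory T cell, Th17, CD8 and NK, B cell and housekeeping genes had 0 of 83, 55, 38, 43 and 86. Over all 13 lists, 11 of 1734 naive-open regions were members (0.634%), close to the 0.679% over all regions, and single lists held 0 to 4. The count of 11 was 22 without Th1_WT replicate 1, 7 without naive_WT replicate 2, 23 without both Th2_KO libraries and 2 with lists of equal length.

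**Figure D5:**
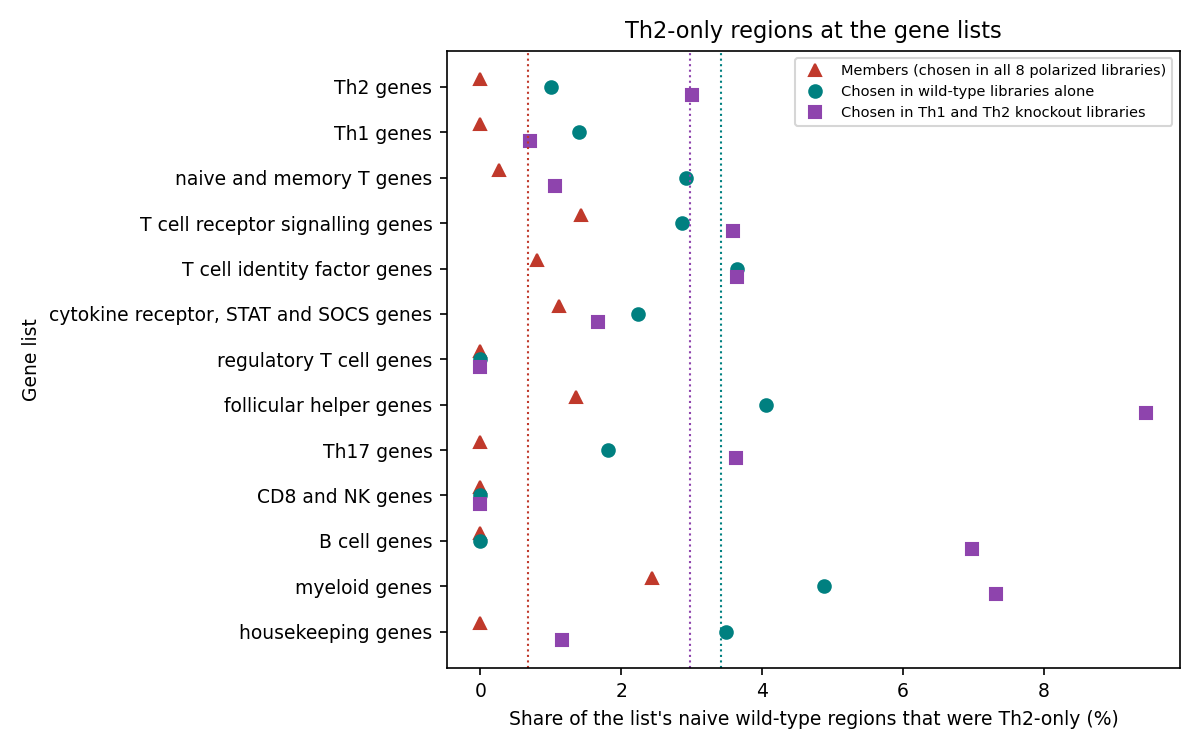
Percent of the naive-open regions at each gene list that were members, and the percent chosen in 1 genotype alone, where dotted lines give each share over all regions with a wild-type naive peak. For members, the Th2 and Th1 lists are at 0 of 100 and 0 of 143, T cell receptor signalling genes at 1.43%, and the background is 0.679%.

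Of the 201 list genes 12 had a member, each with 1, and these are named after their values had been seen. The member at Ets1, the gene whose super-enhancer was deleted, lay inside the gene at chr9:32731553-32732329 and was 1 of 32 naive-open regions there. Its fold was 3.52 and 3.50 in Th2 KO libraries, 3.12 and 3.05 in Th2 WT libraries, 6.73 and 5.54 in naive KO libraries and 5.30 and 6.31 in naive WT libraries. The Ets1 region was thus called in both naive KO libraries, as were 44.7% of members and 54.8% of all naive-open regions. Its Th2 KO peaks were required by the rule. It was found again in lists of equal length and at a −log10 q-value of at least 2, but not when peaks had to cover at least 50% of the region.

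Genes of the CD3 complex, which carries the T cell receptor signal into the cell, had 2 members within 20 kb between them. One lay 0.749 kb from Cd3e at chr9:45010412-45010845, with folds of 3.74 and 3.89 in Th2 KO libraries, 3.73 and 2.65 in Th2 WT libraries, 4.07 and 4.51 in naive KO libraries and 4.79 and 5.28 in naive WT libraries. In Th2_WT replicate 2 its peak stood at the 0.186 percentile of the list, so its membership rested on 1 of the lowest calls there. The other lay 2.40 kb from Cd3g and 14.6 kb from Cd3d, but its nearest protein-coding gene was Ube4a. This region had folds of 3.19 and 3.85 in Th2 KO libraries, 4.10 and 3.20 in Th2 WT libraries, 4.47 and 4.40 in naive KO libraries and 5.19 and 5.18 in naive WT libraries.

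The region inside Prkcq, the gene of protein kinase C theta, had folds of 4.21 and 4.20 in Th2 KO libraries and 4.29 and 3.96 in Th2 WT libraries, with 3.22 in 1 naive KO library and 2.56 in 1 naive WT library, and no naive peak in the others. At Ptprc, the gene of the phosphatase CD45, the region had 2.50 and 2.69 in Th2 KO libraries, 2.92 and 2.71 in Th2 WT libraries, no peak in naive KO libraries and 2.52 in 1 naive WT library. Both were naive-open by a single low-ranking wild-type call, at the 0.539 and 9.79 percentiles. Tox2, an HMG box factor gene of the follicular helper list, had 3.76 and 3.97 in Th2 KO libraries, 3.94 and 4.12 in Th2 WT libraries, 6.03 and 7.39 in naive KO libraries and 8.95 and 8.44 in naive WT libraries. By score, the Tox2 region stood at the 63.8 to 80.4 percentiles in its naive lists and at 29.5 to 39.6 in its Th2 lists. These ranks describe each list and are not read as a change between cell states.

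Of the remaining list genes, Il10ra, the receptor chain for IL-10, had folds of 3.90 and 3.16 in Th2 KO libraries, 4.20 and 3.77 in Th2 WT libraries, 4.37 in 1 naive KO library, and 3.80 and 3.49 in naive WT libraries. Stat5b, which acts downstream of IL-2, had 3.06 and 3.67 in Th2 KO libraries, 3.42 and 2.91 in Th2 WT libraries, 3.38 in 1 naive KO library, and 3.21 and 3.73 in naive WT libraries. The Stat5b region stood at the 10.6 to 38.6 percentiles in Th2 lists and was found again under none of the 3 other readings of the rule. The regions at Actn1, an actin cross-linker gene, and at Elf1, an ETS family factor gene, had no naive KO peak, and Itgam lay 18.4 kb from its region. The Elf1 and Itgam regions were naive-open by 1 wild-type call each, at the 11.8 and 12.5 percentiles. Of the 11 regions at list genes, 4 had a peak in both naive KO libraries, where the share was 44.7% over all members and 54.8% over all naive-open regions. With 11 regions this count is a description only. In lists of equal length, the Ets1 region alone of these 11 was found again.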

How the data were processed

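ATAC-seq peak lists of 12 libraries were used, 2 per group. Per the submitters' processing notes, the authors used BWA, Picard and MACS2 with the GRCm38 build, with versions not given in the sources used here. Peaks were called per library. Per the layout of the deposited lists, each peak has a score, its fold enrichment as a ratio to local background, a −log10 p-value and a −log10 q-value. This score is 10 times the −log10 q-value, and it was used to rank peaks within a list. Read depth is unknown, so no counting interval could be given.

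Peaks on chromosomes 1 to 19 and X were merged at an overlap of at least 1 bp (pandas 2.3.3 and numpy 2.4.6 under Python 3.11.15; figures with matplotlib 3.10.9, tests with scipy 1.17.1), and the rule was tested on simulated peak lists. A gene was given the regions over its body and up to 20 kb away, by the RefSeq GRCm38.p6 gene table, which matched all 201 list genes. Exons and introns were not distinguished. Distances to starts use the RefSeq promoter windows, which cover 17274 of 21631 protein-coding genes. Named by a fixed rule are list genes with at least 2 members (there were none), 12 fixed genes, the protein-coding genes with most members, the 10 members with the highest mean Th2 percentile, and genes with a member within 1 kb of a listed start, except genes that are not reported here. List genes with 1 member and the member whose nearest protein-coding gene was Gata3 are named outside this rule. The members and the 13 gene lists were chosen with earlier results of these data known. The single test is an exact permutation test over 4 libraries, whose p-values measure only the spread between these libraries. Alternatives were lists of equal length, a −log10 q-value of at least 2, coverage of at least 50% of a region, both naive WT libraries required, both Th2_KO libraries left out, each library left out in turn, 2.5 kb in place of 1 kb, and gene bodies without a flank.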

Additional observations from a re-analysis of the deposited data

How the results depend on the processing

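With lists of equal length there were 80 members in place of 394, and 6.54% of Th2-only regions had a naive wild-type peak in place of 14.6%. On those lists 72.5% of members had a peak in at least 1 naive KO library, against 80.5% of all naive-open regions, in place of 66.5% against 69.0%, the read-back difference was 25.1 points in place of 32.8, and 2 members lay at list genes in place of 11. Without both Th2_KO libraries these were 985 members, a share of 20.8% and 23 members at list genes. With peaks in both naive WT libraries required, the share was 11.4% and 7 members lay at list genes. Of those members 78.5% had a naive KO peak, against 79.1% of all regions with a peak in both naive WT libraries. With coverage of at least 50% of a region the share was 12.1% and 10.0% of members lay within 1 kb of a start, against 3.93% at an overlap of 1 bp. The share of all naive-open regions at starts was not computed at that coverage. Within 2.5 kb, at an overlap of 1 bp, were 7.33% of members and 20.8% of all naive-open regions. Without a flank, 7 members overlapped list genes. Leaving out the Th2_KO libraries takes conditions out of the rule. Beyond that, the cause of these shifts was not tested. Leaving out each library in turn gave 332 to 656 members, shares of 12.3 to 19.1%, naive KO shares of 51.7 to 74.7%, read-back differences of 24.2 to 36.7 points, 3.94 to 6.30% of members within 1 kb of a start and 7 to 22 members at list genes. Leaving out a Th2 or Th1 library takes a condition out of the rule. Without naive_KO replicate 2 or replicate 1, the naive KO shares of 51.7% and 59.5% are those of the 1 remaining naive KO library. The difference between Th2-only and Th1-only counts with a naive peak, 394 against 149, changed sign with lists of equal length (80 against 208). These counts were not set side by side under the other settings. The read-back difference kept its sign at each setting at which it was computed, and the other values are counts and shares, which have no sign. With a replicate block, chosen after seeing the data, the wild-type-chosen read-back differed by 36.0 and 29.6 points for replicate numbers 1 and 2, whose mean is 32.8 points by construction (exact sign-flip p = 0.5, the smallest that 2 pairs allow). The numbers are shared between Th2 and Th1 titles and are not said to mark a shared animal. The other results were not paired, since they are counts over all libraries. Unknown read depth and 2 libraries per group limit all of these values.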
